A study of Rattus norvegicus with 10 samples.

Results

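The genes described here are *Pmch*, *Hcrt*, *Gal*, *Cartpt* and *Nucb2*, which encode the precursors of feeding peptides made in the lateral hypothalamus. They were chosen by gene symbol, each has 1 probe set (a group of short probes against a transcript), and together they make up 5 of the 31099 probe sets on the rat array. The samples came from the brain of male Wistar rats, which the study's methods place in the hypothalamus area, and restriction began at 6 weeks of age. A control group received the full daily intake, and 4 groups received 5, 10, 20 or 30% less (calorie restriction, CR) for 1 week. RNA of 5 rats was pooled for each group after a 16 h fast and measured on 1 array, so a level has no replicate and the control is a single pool. All groups, the control included, had fasted before sampling.

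The lateral hypothalamus holds neurons that drive feeding and wakefulness. *Pmch* encodes melanin-concentrating hormone, which promotes feeding and sleep, and *Hcrt* encodes the orexins (hypocretins), which promote wakefulness and food seeking. The 2 peptides are made in separate neurons. *Cartpt* encodes the CART peptides, which reduce feeding in many tests and are found in melanin-concentrating hormone neurons as well as in the arcuate nucleus, and *Gal* encodes galanin, which stimulates feeding and is spread over several hypothalamic nuclei. *Nucb2* encodes nucleobindin 2, a calcium-binding protein and the precursor of nesfatin-1, a peptide that lowers food intake. In pooled tissue, fewer cells of a type and less RNA per cell cannot be told apart.

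Promoters are shown for *Cartpt*, *Gal* and *Hcrt*, the genes for which a sequence was available. These 3 of the 5 genes matched by symbol to the RefSeq promoter table of the GRCr8 assembly. Each run gives the 250 bases before the transcript start, 5′ to 3′ on the gene's strand, which is the minus strand for all 3. Capitals mark the cyclic AMP response element, which reads TGACGTCA on either strand. They also mark the core of the TATA box, spelled TATAA. Both strands were searched, and the motifs do not overlap here.
Cartpt, chr2:32991236-32991485: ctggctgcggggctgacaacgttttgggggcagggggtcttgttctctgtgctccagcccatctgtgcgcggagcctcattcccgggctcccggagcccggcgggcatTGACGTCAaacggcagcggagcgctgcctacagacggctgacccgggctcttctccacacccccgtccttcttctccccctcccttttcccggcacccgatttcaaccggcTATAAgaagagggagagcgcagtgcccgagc
Gal, chr1:210084573-210084822: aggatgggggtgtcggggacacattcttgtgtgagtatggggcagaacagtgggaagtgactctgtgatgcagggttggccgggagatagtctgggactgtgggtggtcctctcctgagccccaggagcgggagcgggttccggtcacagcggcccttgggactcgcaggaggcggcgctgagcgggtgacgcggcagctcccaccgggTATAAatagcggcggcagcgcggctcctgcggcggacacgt
Hcrt, chr10:86191525-86191774: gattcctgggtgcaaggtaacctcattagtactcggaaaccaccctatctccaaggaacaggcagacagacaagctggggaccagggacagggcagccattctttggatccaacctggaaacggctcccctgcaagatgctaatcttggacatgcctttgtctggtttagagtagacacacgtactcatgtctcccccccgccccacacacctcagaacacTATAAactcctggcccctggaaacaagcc

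All 3 windows hold a TATAA, which begins 31 bases before the start in *Cartpt*, 41 in *Gal* and 29 in *Hcrt*. This motif is present in 24.0% of the 33469 windows of that length in the table. The full TGACGTCA is found in the *Cartpt* window, where it begins 142 bases before the start, and in neither of the others. It is present in 1.59% of all windows. The core of this element, TGACG, also occurs in the *Gal* window, where it begins 63 bases before the start and is left in small letters. *Hcrt* has none, and the core is present in 18.2% of all windows. The windows of *Cartpt* and *Gal* are rich in G and C (65.6 and 66.0%), against 53.6% for *Hcrt* and a median of 51.2% over the table. A match of letters is a description and says nothing on whether a factor binds there. *Pmch* and *Nucb2* are named without a sequence.

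After 1 week of restriction, *Cartpt* was higher at all CR levels, 1.56-fold on average, and it was the only gene of the 5 that passed the test. *Pmch*, *Gal* and *Hcrt* had signals 1.18 to 1.21 times that of the control on average and did not pass. *Nucb2* had a signal 0.719 times that of the control and did not pass either. In each of the 5 genes, all 4 CR arrays lay on the same side of the control, above it in 4 genes and below it in *Nucb2*. This was common on these arrays: 37.1% of the 15521 probe sets tested had all 4 CR arrays above the control and 33.1% had all 4 below. Among probe sets as bright as *Hcrt* and *Cartpt*, 54.5% had all 4 above and 31.5% were called higher, and among those as bright as *Pmch*, 78.9% and 58.2%. Of all 15521 probe sets tested, limma called 14.5% higher and 11.0% lower at an adjusted p under 0.05 (2246 and 1712 probe sets), beside 1 of 5 and 0 of 5 here. The split was 1023 higher and 5024 lower with arrays centred on the median of all probe sets, and 4943 and 1742 without the signal filter. The median log2 difference of the 5 genes was 0.25, beside 0.03 over all probe sets tested.

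**Figure D1:**
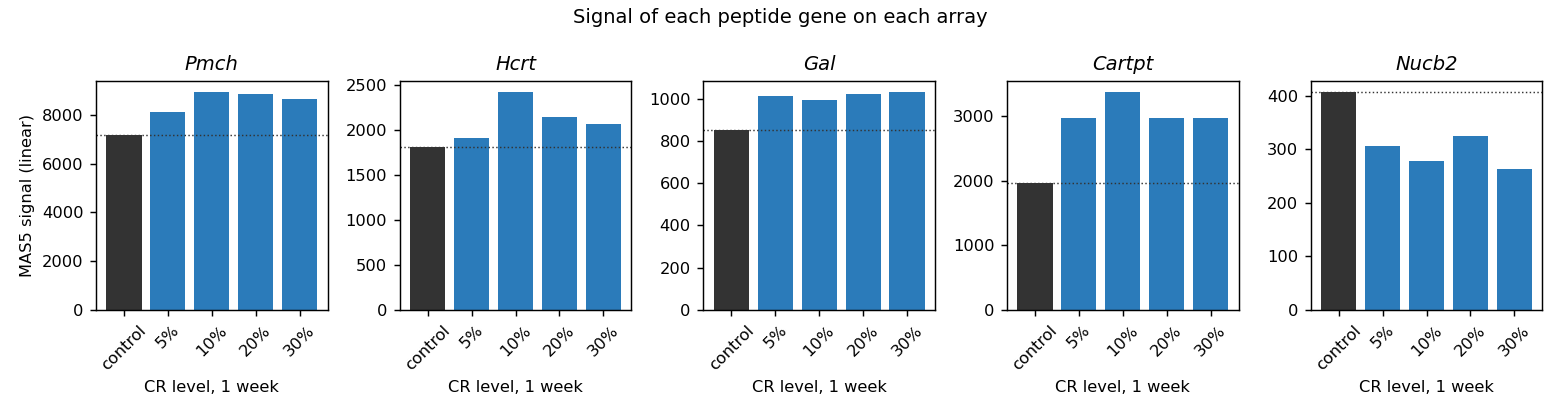
MAS5 signal (linear scale, from 0) of each gene on the control array (dark) and the 5, 10, 20 and 30% CR arrays (blue) of 1 week, 1 array a group, so there are no error bars. The dotted line is the control signal, and all CR bars are above it except those of *Nucb2*, which are all below.

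The control array differed from the CR arrays as a whole, and every difference from control uses it. Its log2 signals correlated with those of the CR arrays at 0.852 to 0.874 across probe sets, against 0.912 to 0.922 among the CR arrays. It had 24.0% of signals under 10 (11.7 to 14.4% on the CR arrays) and higher poly-A spike-ins, the bacterial transcripts added before labelling, in 12 of 12 probe sets. Its 3'/5' log2 ratio was 0.19 for GAPDH and 1.90 for beta-actin, below the 0.40 to 0.79 and 2.19 to 2.80 of the CR arrays. The part of these features in the differences below was not tested, and diet and the control pool or array cannot be told apart.

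*Cartpt* had a signal of 1972.9 in the control, and of 2980.7, 3380.0, 2982.6 and 2978.4 at 5, 10, 20 and 30% CR. The 10% array was the highest, and the other 3 lay between 2978.4 and 2982.6, all above the control. The log2 difference of the CR mean from the control was 0.64 (SE 0.11, 95% interval 0.40 to 0.89, adjusted p = 0.00292 by limma). The ratios to the same control array were 1.51, 1.71, 1.51 and 1.51 in order of CR level. *Cartpt* was thus past 1.5-fold at each level, as were 20.7, 21.9, 22.6 and 19.5% of all probe sets tested in that direction at 5, 10, 20 and 30%. The call held under 13 of 14 alternatives and was lost when arrays were centred on the median of all probe sets (0.21, adjusted p = 0.198), a scaling described further on. It was kept in each of the 4 fits that left out a CR array, and was closest to the threshold without limma's intensity trend (adjusted p = 0.0487).

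*Pmch* had a signal of 7157.0 in the control and of 8130.4, 8942.1, 8871.1 and 8646.2 at the 4 CR levels in rising order. The CR arrays were all higher than the control but spread little among themselves, with an SD of 0.06 on the log2 scale (n = 4). The log2 difference from control was 0.27 (SE 0.09, 95% interval 0.06 to 0.48, adjusted p = 0.0575). The largest ratio was 1.25, at 10% CR.

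*Hcrt* had a signal of 1807.5 in the control and of 1907.7, 2422.5, 2142.7 and 2067.7 at 5, 10, 20 and 30% CR. The 5% array was close to the control (a ratio of 1.06), and the 10% array was the highest, at 1.34 times the control. The log2 difference was 0.23 (SE 0.13, 95% interval -0.06 to 0.53, adjusted p = 0.224). Like *Pmch*, its CR arrays ran from 5% as the lowest through 30 and 20% to 10% as the highest. The log2 ratio of *Pmch* to *Hcrt* therefore moved little from its control value, by 0.11, -0.10, 0.06 and 0.08 in order of CR level.

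*Gal* had a signal of 853.1 in the control and of 1012.3, 995.5, 1024.2 and 1031.7 at the CR levels. These 4 CR signals were nearly equal, with an SD of 0.02 on the log2 scale (n = 4), which placed it at the 0.4th percentile of that SD over the probe sets tested. The log2 difference was 0.25 (SE 0.11, 95% interval -0.001 to 0.50, adjusted p = 0.131). The SE is larger than the spread of its own CR arrays because limma draws each variance towards that of probe sets of similar signal.

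*Nucb2* ran the other way, with 406.8 in the control and 305.8, 278.8, 324.8 and 263.8 at 5, 10, 20 and 30% CR. The lowest signal was at 30% and the highest CR signal at 20%, so the signals did not follow the order of the CR levels. The log2 difference was -0.48 (SE 0.18, 95% interval -0.87 to -0.08, adjusted p = 0.074). Its signal was lower by over 1.5-fold at 30% only (a ratio of 0.65). None of the other 4 genes was below the control at any level, and the share of all probe sets past that fold downward was 14.7, 16.6, 17.1 and 13.7% at 5, 10, 20 and 30%.

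The ratio of *Cartpt* to each of the other genes was compared within an array. Its log2 ratio to *Pmch* was above the control value by 0.37 on average (SD 0.08, n = 4), its ratio to *Hcrt* by 0.41 (SD 0.08) and its ratio to *Gal* by 0.39 (SD 0.11). The ratio was above that of the control on 4 of 4 CR arrays in each case, the smallest excess being 0.29. These differences between genes were not tested. The ratio of *Cartpt* to *Nucb2* moved furthest, by 1.12 (SD 0.19).

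The size of a difference also depended on how bright a probe set was. Probe sets with a mean log2 signal of 12 or more, 194 in number, were mostly above the control (84.0% of them), with a median log2 difference of 0.38 and quartiles of 0.17 and 0.55. *Pmch* belongs to this range and its 0.27 was under that median. Between 11 and 12 the median over 321 probe sets was 0.15, with quartiles of -0.19 and 0.46. *Hcrt* (0.23) was inside these quartiles and *Cartpt* (0.64) above the upper one. Between 9 and 10 the median over 1674 probe sets was -0.09 and the upper quartile 0.24, close to *Gal* at 0.25. Between 8 and 9 the median over 2904 probe sets was -0.06 and the lower quartile -0.40, and *Nucb2* (-0.48) was below it.

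**Figure D2:**
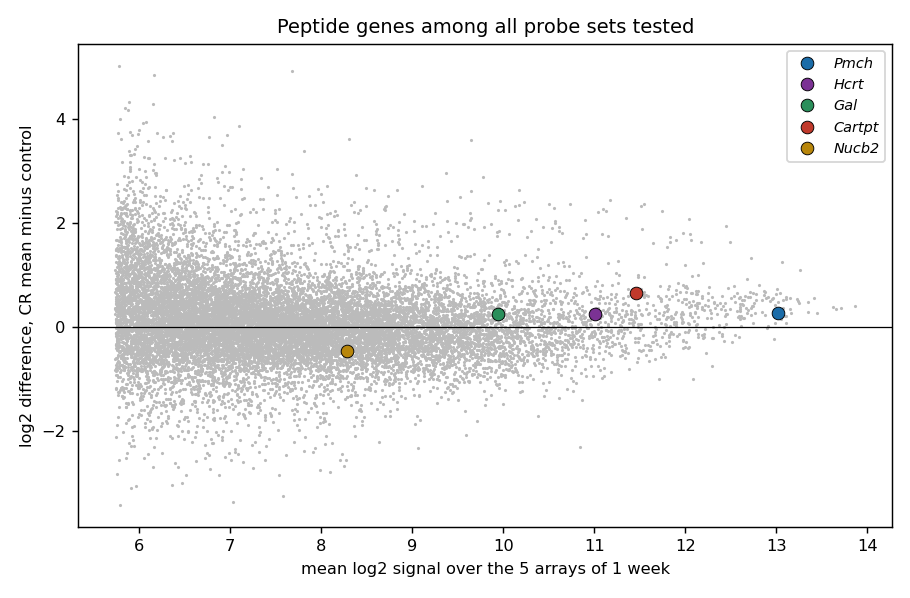
Each grey point is a probe set tested at 1 week, at its mean log2 signal over the 5 arrays (x) and the log2 difference of the mean of 4 CR arrays from the control (y), with the 5 peptide genes as coloured circles. The grey cloud bends upward at its bright end, where *Pmch* lies at 0.27, and *Cartpt* lies at 0.64, above most points of its signal.

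Scaling acted on the genes in different ways. *Cartpt* was 0.63 higher after quantile scaling, 0.54 after cyclic loess and 0.59 when arrays were set to the mean of 5 hypothalamic neuron markers, and was called each time. *Pmch* was -0.05 after quantile scaling and 0.02 after cyclic loess, so its direction was not settled. *Gal* was 0.35 after quantile scaling, which passed (adjusted p = 0.0482), and 0.26 after cyclic loess, which did not. *Hcrt* was 0.27 and 0.17 and *Nucb2* -0.39 and -0.41 under the same scalings, with no call. Centring on the median of all probe sets moved the median of those tested to -0.41. Relative to that median, *Pmch*, *Hcrt*, *Gal*, *Cartpt* and *Nucb2* were at 0.24, 0.21, 0.22, 0.61 and -0.51. Centring shifts each array by a constant, so these values equal those of the deposited scaling by construction and are no further support.

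**Figure D3:**
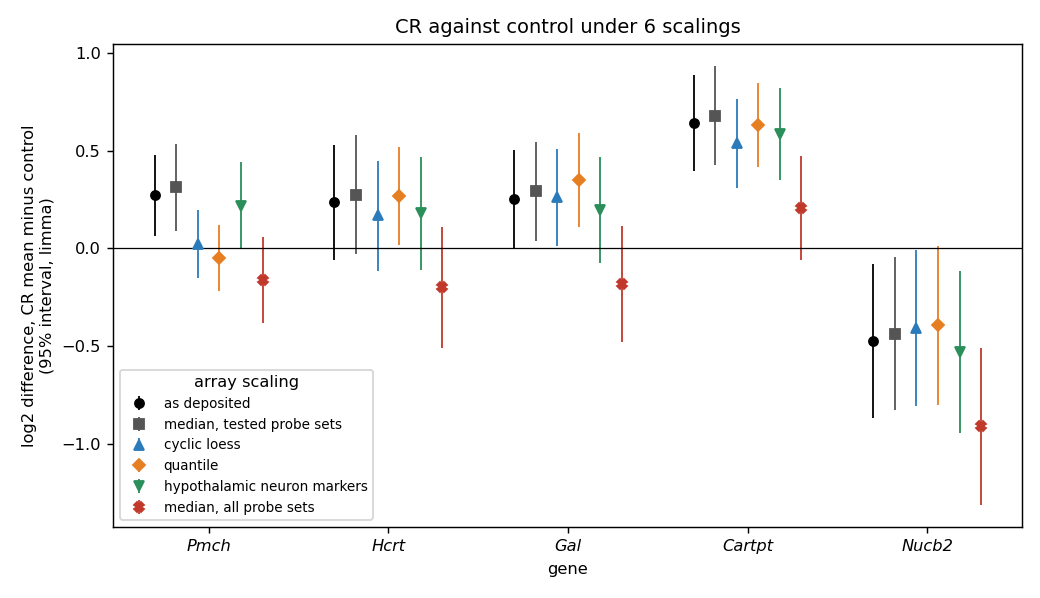
Log2 difference of the CR mean from the control for each gene (x) under 6 scalings, with the 95% interval by limma. *Cartpt* is above 0 and *Nucb2* below 0 under all 6, while *Pmch*, *Hcrt* and *Gal* fall below 0 when arrays are centred on the median of all probe sets, and *Pmch* also with quantile scaling.

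Whether the signals moved with the size of the restriction was asked of the 4 CR arrays alone, which leaves the control array out. No gene of the 5 had a slope past the threshold, and neither did any other probe set (0.0% of 15521 by limma, with 743 at an unadjusted p under 0.05). The slope per 10 percentage points of CR, on the log2 scale, was -0.031 for *Cartpt* (95% interval -0.16 to 0.10) and 0.023 for *Pmch* (-0.09 to 0.14). It was 0.002 for *Hcrt* (-0.15 to 0.15), 0.016 for *Gal* (-0.11 to 0.14) and -0.048 for *Nucb2* (-0.24 to 0.15). Between the highest and the lowest CR array the ratio was 1.04 for *Gal*, 1.10 for *Pmch*, 1.13 for *Cartpt*, 1.23 for *Nucb2* and 1.27 for *Hcrt*. Since a level has a single array, neighbours in these orders can be set only against the spread of the 4 CR arrays.

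Of the receptors for these peptides, *Hcrtr1*, an orexin receptor, rose, and the others did not pass or had signals too low to test. *Hcrtr1* had a signal of 70.3 in the control and of 142.6, 120.0, 118.6 and 137.8 at 5, 10, 20 and 30% CR. All 4 were above the control, by a log2 difference of 0.88 (SE 0.26, 95% interval 0.30 to 1.46, adjusted p = 0.0332). The call held under 8 of 13 alternatives, and was lost with quantile, cyclic loess and all-probe median scaling and without the 5% or the 30% array (highest adjusted p = 0.216). *Hcrtr1* is a dim probe set, with a mean log2 signal between 6 and 8. Over the 8431 probe sets of that range the median difference was 0.05 and the upper quartile 0.49, and 11.9% were called higher. *Hcrtr2*, the other orexin receptor, had a signal of 107.4 without restriction and of 116.0 to 143.3 under CR (0.26, adjusted p = 0.494). Of the galanin receptors, *Galr2* had a difference of 0.27 on its brighter probe set (adjusted p = 0.632), and its CR arrays lay on both sides of the control. The signal of *Galr1* was 7.7 to 25.9, that of *Galr3* 8.2 to 21.6 and that of *Mchr1*, the melanin-concentrating hormone receptor, 14.5 to 51.0 over the 5 arrays, all under the signal filter.

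*Nucb1*, the paralogue of *Nucb2*, fell. It had a signal of 892.5 in the control and of 375.4, 273.7, 269.8 and 409.0 at the CR levels, a log2 difference of -1.45 (SE 0.24, adjusted p = 0.00248). It was called under 14 of 14 alternatives. The difference from *Nucb2*, which did not pass, was not tested. Whether the probe sets of the paralogues share transcripts was not tested. *Galp*, galanin-like peptide, had a signal of 20.0 without restriction and of 40.1 to 58.5 under CR, below the filter.

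The enzymes and granule proteins that turn such precursors into peptides fell or did not pass. Of 11 genes measured, 3 fell and none rose, beside 11.0% called lower and 14.5% called higher over all probe sets tested. The median was -0.38, beside 0.03. *Qpct*, glutaminyl cyclase, which closes the first residue of orexin-A, fell from 591.8 to between 271.8 and 296.3 (-1.07, adjusted p = 0.00143). *Pcsk1n*, an inhibitor of prohormone convertase 1, fell from 3266.8 to between 1305.3 and 1778.2 (-1.09, adjusted p = 0.00144), and both were called under 14 of 14 alternatives. *Scg3*, a granule protein, fell by 0.42 on the log2 scale (adjusted p = 0.0188, and 0.108 without limma's intensity trend). The brightest genes that did not pass were *Cpe*, *Scg5*, a chaperone of prohormone convertase 2 (0.06), and *Scg2*, a granule protein (-0.17). *Cpe*, the carboxypeptidase that trims basic residues from cut precursors, was at 0.27 (adjusted p = 0.0601), and *Pam*, which amidates peptides such as galanin, was at -0.38 (adjusted p = 0.0502). *Cpe* changed sign when arrays were centred on the median of all probe sets (-0.16) and with quantile scaling (-0.05), and *Pam* passed under 7 of 14 alternatives. *Furin*, a convertase of the Golgi, was at 0.74 (adjusted p = 0.0534) and *Pcsk2*, a convertase of the granule, at -0.76 (adjusted p = 0.112).

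Of other transcripts of lateral hypothalamic neurons, *Pdyn* fell and the rest did not pass or were not tested. Of 10 genes listed, 9 were on the array and 5 passed the filter, of which 1 fell and none rose. Over all probe sets tested, 11.0% were called lower and 14.5% higher. *Pdyn* encodes dynorphin, a peptide made by orexin neurons and in other nuclei. It had a signal of 617.2 in the control and of 444.7, 381.1, 383.5 and 280.7 at 5, 10, 20 and 30% CR. The log2 difference was -0.75 (adjusted p = 0.0349 by limma). The call was lost under 3 of 14 alternatives, with quantile and cyclic loess scaling and without limma's intensity trend (highest adjusted p = 0.105). *Slc17a6*, the vesicular glutamate transporter of hypothalamic neurons, was at -0.14 and *Gad1*, which makes GABA, at -0.21. *Nts*, neurotensin, was at 0.03. *Tacr3*, a tachykinin receptor, was at 0.36, with all 4 CR arrays above the control, and none of these 4 genes passed. Of the genes under the filter, *Gad2* had a signal of 124.7 in the control and of 23.2 to 38.0 under CR. *Lepr* and *Lhx9* had all 4 CR arrays above the control, and *Igfbp3* had CR arrays on both sides of it.

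Among arcuate feeding genes, *Npy*, the orexigenic neuropeptide Y, was 2.38-fold higher (1.25, adjusted p = 0.000257). It was called under 14 of 14 alternatives and was the only one of 3 tested that passed. The signal of *Pomc* on its probe set was 2.6 to 14.8 over the 5 arrays and was not tested. Of 11 other hypothalamic peptides tested, *Sst*, somatostatin, rose (0.55), *Trh*, thyrotropin-releasing hormone, and *Tac1*, the substance P precursor, fell (-1.09 and -0.98), and 8 did not pass. The call of *Sst* was lost with arrays centred on the median of all probe sets (0.12, adjusted p = 0.48) and without the trend (adjusted p = 0.0637). That of *Tac1* was lost without the trend (adjusted p = 0.0649). The median of the 11 peptides was -0.31, beside 0.03 over all probe sets tested. Of those probe sets, 14.5% were called higher and 11.0% lower.

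**Figure D4:**
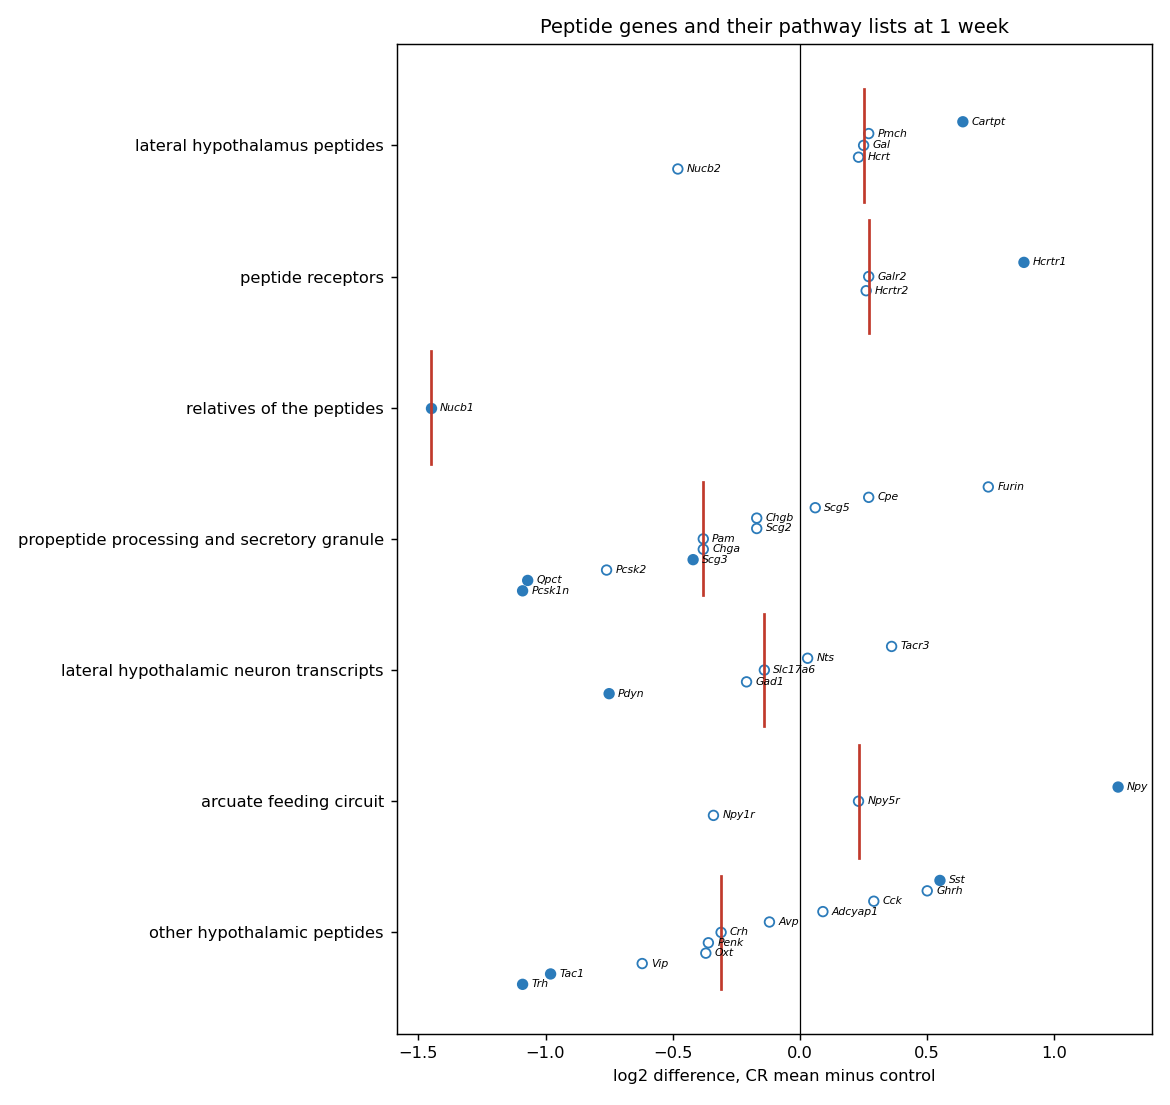
Log2 difference of the CR mean from the control (x) for the tested genes of each list (y), with filled points for an adjusted p under 0.05 (limma), with the list median as a red bar. The medians were 0.25 for the 5 peptide genes, 0.27 for the 3 tested receptors and -0.38 for the processing and granule genes.

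The profile of *Pmch* over the 5 arrays was matched most closely by that of *Cpe*. Likeness was the root mean square difference between log2 signals, each centred on its own mean, over 5 arrays and 9345 named genes, and it was 0.007 for *Cpe*. The next were *Bhlhe41*, a transcriptional repressor (0.016), and *Usp14*, a deubiquitinase (0.019). For *Cartpt* the nearest were *Smdt1*, a part of the mitochondrial calcium uniporter (0.025), *Fcer1g*, an immune receptor chain (0.030), and *Ptrh2* (0.034). *Gal* was nearest to *Ube2k* (0.016), *Yeats4* (0.017) and *Atp5f1c* (0.018). *Hcrt* was nearest to *C10h17orf75* (0.019), *Vamp8* (0.027) and *Phaf1* (0.031), and *Nucb2* to *Emcn* (0.037), *Spns1* (0.039) and *Scrn3* (0.047). Among the peptide genes themselves, *Pmch* and *Gal* were closest (0.054), followed by *Pmch* and *Hcrt* (0.074), and *Cartpt* and *Nucb2* were furthest apart (0.469). All these profiles share the same 5 arrays and their scaling.

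The hypothalamic label was checked on marker genes. Lists for cortex and hippocampus, striatum, ependyma, astrocytes and microglia were also made and are not described here. Of 7 hypothalamic neuron markers 5 were on the array, and their signals summed to 20916.2 without restriction and to 22519.5 to 23684.1 under CR. *Resp18*, a granule protein, rose (0.45, lost under 4 of 14 alternatives), and *Nnat*, *Gprasp2*, *Hap1* and *Zcchc12* did not pass. General neuron markers were lower in sum, at 19248.1 in the control against 17410.1 to 18930.8 under CR. Of 9 tested, *Tubb3* (-0.64), *Stmn2* (-0.41) and *Syp* (-0.37) fell, *Nefm* (0.44) and *Eno2* (0.38) rose, and 4 did not pass. Pituitary markers were higher with CR, and the 7 signals summed to 990.3 without restriction and to 2049.2 to 2860.7 under CR, mostly from *Cga*, which rose (1.18). *Lhb* and *Tshb*, at 33.6 and 43.3 in the control, passed the filter only through their CR arrays, so that their calls are no support. The signals of the pituitary markers *Prl* and *Gh1* were 0.6 to 29.8 and 8.0 to 50.6. Thalamic markers were lower in sum, at 3161.4 against 2276.6 to 2442.5 (2 of 6 tested fell, none rose). The largest part of that sum was *Calb2* (1773.7 in the control), which fell (-0.66), as did *Cbln1* (-0.72). *Rora* (-1.47), *Prkcd* (0.02), *Tcf7l2* (0.21) and *Lef1* (0.44) did not pass, the last 2 with all 4 CR arrays above the control. Choroid plexus markers were higher in sum, at 113.5 against 218.9 to 291.1. In that list *Ttr*, at 35.5 in the control and 110.5 to 202.6 under CR, likewise passed the filter only through its CR arrays. Of 7 oligodendrocyte markers 3 fell, *Mog* (-1.35), *Mal* (-1.26) and *Ugt8* (-1.36), and none rose. *Mag* (-0.3), *Mobp* (-0.0), *Mbp* (0.07) and *Cnp* (0.24) did not pass. Of 5 endothelial markers *Cldn5* fell (-1.36) and none rose. *Slco1a4* (-0.23), *Tek* (-0.1), *Flt1* (0.68) and *Pecam1* (1.28) did not pass. *Flt1* and *Pecam1*, at 45.2 and 32.9 in the control, entered the test only through their CR arrays. The thalamic and oligodendrocyte lists thus did not move as a whole. Over all probe sets tested, 11.0% were called lower and 14.5% higher. The part of other tissue in the peptide differences was not tested. Scaled to the hypothalamic neuron markers, *Pmch*, *Hcrt*, *Gal*, *Cartpt* and *Nucb2* were at 0.22, 0.18, 0.20, 0.59 and -0.53.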

How the data were processed

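The authors deposited a linear signal intensity per probe set, scaled per array, with 1 array for each pool. MAS5 is the tool listed in the submitters' notes. Within 1 week the trimmed mean was 158.8 on all 5 arrays. Detection calls were not used here, so low signals cannot be told from absent transcripts. The 1 month arrays were not used: their rows did not follow the probe set identifiers (r = 0.036 to 0.052 with the 1 week arrays, against 0.918 to 0.935 among themselves).

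Signals were taken as log2 with no pseudocount, after 4 values of 0 were set to 0.1. Probe sets were named from the platform annotation, where 20832 had 1 symbol, 436 several and 9831 none. limma 3.58.1 (R 4.3.3; lmFit, eBayes with trend) compared the 4 CR arrays with the control (3 residual degrees of freedom) and fitted a slope over the 4 CR levels (2 residual degrees of freedom). Both used the 15521 probe sets above the 50th percentile of mean log2 signal, without control probe sets, with Benjamini-Hochberg adjustment and a threshold of 0.05. The CR levels are not replicates of a dose. The residual spread comes only from the 4 CR arrays, which differ in CR level, and limma draws it towards that of other probe sets. The single control has no spread of its own, so the p-values do not measure variation between pools of the same group. Ratios per level were counted past 1.5-fold. For lists, the brightest probe set per gene was used. All 5 peptide genes were given whatever their values. In the other lists, receptors and relatives were given, then up to 6 genes that passed, largest change first, and up to 3 that did not, with *Pcsk2*, *Furin*, *Pam* and *Tacr3* given for their role after their values were seen. The untested genes of the lateral hypothalamic list were also added after their values were seen. Likeness left out provisional names. The peptide genes and all lists were chosen with earlier results of these data known. The fits were tested on simulated arrays whose control was drawn from the mean and SD of the CR arrays. That test therefore cannot tell how the fits behave with a control array that stands apart. Python 3.11.15 (pandas 2.3.3, numpy 2.4.6, matplotlib 3.10.9) was used for tables and plots.

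Alternatives were median, quantile and cyclic loess scaling, no filter or the 75th percentile, a pseudocount of 13.7, robust eBayes or eBayes without the trend, fits without each CR array in turn, the control as 0% in the slope, and a fold of 2. Scaling to hypothalamic neuron markers and to the median of the probe sets tested was added after the data were seen.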

Additional observations from a re-analysis of the deposited data

Results flagged for a closer look

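The *Cartpt* signal of the 10% CR array (3380.0) stood apart from the other 3 CR arrays (2978.4 to 2982.6): its gap to the nearest was 0.989 of the whole log2 range of the 4. The CR arrays of the 5 genes were checked in this way, and chance alone marks about 1 in 20 such groups. Without that array the log2 difference from control was 0.60 and *Cartpt* was still called by limma (adjusted p = 0.00559).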

How the results depend on the processing

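The single control array limits every difference from control, and no setting could replace it. No paired analysis was possible because each group has 1 array. *Cartpt* kept its direction under all 14 alternatives (0.21 to 0.68) and lost its call with median scaling over all probe sets (0.21). That scaling also turned *Pmch* (-0.16), *Hcrt* (-0.20) and *Gal* (-0.18), brought a call for *Nucb2* (-0.91), and gave 1023 probe sets higher and 5024 lower, against 2246 and 1712. Quantile scaling turned *Pmch* (-0.05) and brought a call for *Gal* (0.35). *Pmch* also passed with the filter at the 75th percentile and with robust eBayes (0.27 in both), and with median scaling over the probe sets tested (0.31), with adjusted p from 0.0407 to 0.0495. *Hcrt* passed under no alternative. Without a filter 4943 probe sets were higher, with the filter at the 75th percentile 1295, and without the trend 1006 were lower. Leaving out a CR array gave differences of 0.60 to 0.66 for *Cartpt*, and 1 to 19 probe sets with a rising and 1 to 11 with a falling slope, against 0. Those slopes ran from -0.024 to 0.07 for *Pmch*, -0.114 to 0.07 for *Hcrt* and -0.074 to 0.081 for *Nucb2*, turning without the 5% array in the first and second and without the 30% array in the third. Slopes also turned for *Hcrt* with quantile and cyclic loess scaling (-0.002 in both), and for *Cartpt* with the control as 0% (0.124), and none passed.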
